A study of Mus musculus with 12 samples.

Results

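The nuclear genes of the mitochondrial respiratory chain were described in primary microglia of homozygous *Trem2* R47H KI and WT mice, cultured without or with IL-4. The genes were chosen by name. They are the protein-coding genes outside the mitochondrial genome whose symbol begins with Nduf (assembly factors of the Ndufaf series excepted), Uqcr, Atp5, or Cox4 to Cox8, together with *Sdha*, *Sdhb*, *Sdhc*, *Sdhd*, *Cyc1* and *Cycs*. Of the 48623 genes in the table, 87 carried such a name, and 82 of these had a mean log2(TPM + 1) above 1.5 over the 12 libraries, the limit that 11204 genes passed. The 82 members comprise 37 subunits of complex I, 4 of complex II, 9 of complex III, cytochrome c, 14 of complex IV and 17 of complex V. TPM is an abundance as a share of all transcripts, corrected for transcript length, and all differences are on the log2(TPM + 1) scale.

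The respiratory chain sits in the inner mitochondrial membrane. Complexes I and II take electrons from NADH and succinate, complex III passes them to cytochrome c, complex IV hands them to oxygen, and complex V uses the resulting proton gradient to make ATP. Complexes I, III, IV and V combine nuclear subunits with a few encoded in mitochondrial DNA, whereas complex II is wholly nuclear. In macrophages, alternative activation by IL-4 has been linked to oxidative metabolism, whereas bacterial stimuli are known to favour glycolysis.

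Each genotype was represented by 3 cultures, WT T13, T33 and T43 and KI T15, T22 and T32, on the C57BL/6J background. From each culture an untreated library and one made after IL-4 (20 ng/ml for 48 h) were sequenced, in 4 groups of 3 libraries. The KI mice carry the R47H change on both alleles of *Trem2* in every cell. For this RNA-seq the paper names WT littermates and gives 3 mice per genotype per condition. Its methods describe WT cultures pooled from several newborn pups of a litter, and pups of the KI line cultured separately. The sample labels do not state pooling. If WT pups were pooled, pooling and genotype cannot be told apart. The microglia were freed from mixed glia grown for 19 to 23 days.

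The genotype labels were checked on *Trem2*, which was at 1190 to 1886 TPM in the WT libraries and at 325 to 770 TPM in the KI libraries. The KI culture T15 stood apart. All 8 astrocyte markers were highest in its 2 libraries, and their summed level was 4599 TPM untreated and 3509 TPM with IL-4, against 157 to 661 TPM in the other 10 libraries. The summed level of 10 microglial markers was 7278.5 TPM in T15 untreated and 12138.5 TPM in T15 with IL-4, against 12164 to 21846 TPM elsewhere. The 8 oligodendrocyte lineage markers summed to 455 and 315 TPM in T15 and to 33.1 to 162 TPM elsewhere. The 9 mural and fibroblast markers summed to 701 to 1313 TPM in all KI libraries and to 141 to 553 TPM in the WT libraries, without overlap. Most of that sum was *Acta2* (349 to 790 TPM in KI, 72.6 to 233 TPM in WT) and *Tagln* (195 to 573 TPM and 52.3 to 155 TPM). The other markers of this list did not separate the genotypes. *Col1a1* and *Col1a2* were highest in WT culture T43 with IL-4, at 85.9 and 81.7 TPM. The endothelial markers *Cldn5* and *Tek* and the neuronal marker *Syt1* were listed at 0 in all 12 libraries. The other markers of those lists were not. *Flt1* was at 15.3 to 132 TPM and higher with IL-4 in every culture. It made up most of the sum of the 5 endothelial markers, 19.4 to 29.1 TPM untreated and 61.0 to 141 TPM with IL-4. *Pecam1* was at 1.12 to 9.19 TPM, higher with IL-4 in every culture but T22, where it went from 3.96 to 2.74 TPM. *Cdh5* was at 0.334 TPM or below. The neuronal markers, among them *Tubb3* and *Map2*, summed to 52.8 and 53.2 TPM in T15 and to 3.10 to 22.1 TPM elsewhere. A score of the 8 astrocyte markers was a covariate in 1 alternative fit. The part of the other markers in the results was not tested. In such bulk samples fewer cells of a type and less RNA per cell cannot be told apart. The medians and the sum over all members are also given without T15.

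The respiratory chain genes were among the most abundant transcripts of these cultures. The median member had a mean of 232 TPM, against 18.0 TPM for the median gene tested, and 72 of the 82 members lay above 100 TPM, a level that 12.5% of all genes tested passed. Together they made up 2.13% ± 0.108 of all TPM in untreated WT cultures, 2.35% ± 0.108 in WT cultures with IL-4, 2.40% ± 0.425 in untreated KI cultures and 2.54% ± 0.262 in KI cultures with IL-4 (mean ± SD, n = 3 each). The untreated KI mean rested on T15, at 2.89%, against 2.19% and 2.12% in T22 and T32, which together gave 2.16%. Without T15 the KI mean with IL-4 was 2.45%. The highest mean levels were those of complex IV subunits, with *Cox8a* at 962 TPM, *Cox6a1* at 854 TPM, *Cox6b1* at 853 TPM and *Cox4i1* at 850 TPM, followed by the catalytic ATP synthase subunit *Atp5b* at 809 TPM. *Cycs*, the electron carrier cytochrome c, was at 44.7 TPM.

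**Figure D1:**
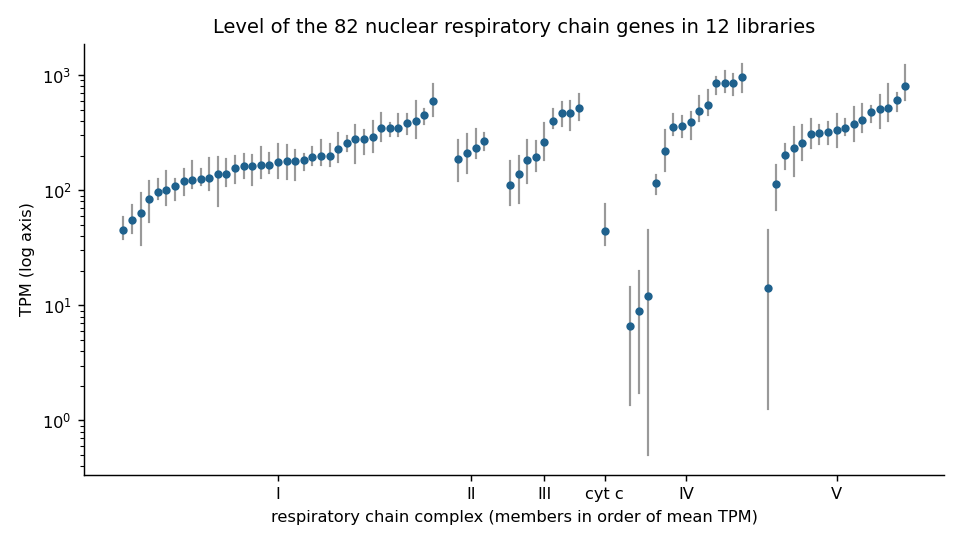
Mean TPM of each of the 82 members (points, log axis) with the range over the 12 libraries (grey lines, values above 0 only), ordered by mean within each complex. Most members lie between about 100 TPM and *Cox8a* at 962 TPM, while *Cox6a2*, *Cox7a1*, *Cox6b2* and *Atp5s* are far lower and range widely.

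Within complexes the levels spread unequally. The 4 subunits of complex II lay close together, from *Sdha* (187 TPM), the flavoprotein that oxidises succinate, to *Sdhb* (267 TPM), its iron-sulphur partner, a 1.43-fold range. Complex III ran from the core subunit *Uqcrc2* (111 TPM) to the small subunit *Uqcrq* (515 TPM), and complex I from the membrane-arm subunit *Ndufa11* (45.4 TPM) to *Ndufa4* (598 TPM), a protein named for complex I that is known to sit in complex IV. In complex V the range went from the coupling factor *Atp5s* (14.2 TPM) to *Atp5b*. The 145-fold range of complex IV came from its tissue isoforms. *Cox4i1*, *Cox6a1*, *Cox6b1*, *Cox7a2* (357 TPM) and *Cox8a*, the isoforms used in most tissues, were high. The muscle isoforms *Cox6a2* (6.62 TPM) and *Cox7a1* (8.90 TPM) and the testis isoform *Cox6b2* (12.0 TPM) were low. Those 3, with *Atp5s*, were the members nearest to the expression limit. The 5 named genes below it were *Cox4i2*, an isoform known from lung and hypoxia, at a mean of 0.269 TPM, and *Cox8b*, *Cox8c*, *Cox7b2* and the hypoxia-linked *Ndufa4l2*, all listed at 0. The supercomplex-associated *Cox7a2l* was at 115 TPM. The 3 genes for subunit c of the ATP synthase rotor, which encode the same mature protein, differed in level, with *Atp5g3* at 523 TPM, *Atp5g1* at 307 TPM and *Atp5g2* at 113 TPM.

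Reads can be shared with copies of some of these genes. The processed pseudogene *Ndufb4c* was listed at 221 to 355 TPM, above *Ndufb4* itself at 42.3 to 73.8 TPM, so the division of reads between them is uncertain. *Ndufb1-ps*, annotated as a noncoding transcript and therefore outside the set, was listed at 165 to 229 TPM. The other 11 noncoding genes with like names had means below 1 TPM.

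Promoters were read because nuclear respiratory genes are known to share binding sites of NRF1, of ETS factors such as GABP (NRF2) and of YY1. Windows from 250 bases before to 50 after the start site (RefSeq, GRCm38.p6) were given for 66 of the 82 members. A gene was counted as holding a motif if any of its windows held it, on either strand. The NRF1 core GCGCATGC was held by 11 of the 66 members (16.7%), against 6.39% of 8229 other expressed genes. Of all 32851 windows, counted singly and not by gene, 2.71% held it. The YY1 motif AAGATGGC was held by 9 members (13.6%), against 5.71% of the other expressed genes and 2.75% of single windows. The ETS motif CCGGAAGT was held by 5 members (7.58%), against 10.2% of the other expressed genes and 3.89% of single windows. The following stretches, with the match in capitals and written in the direction of the gene, show each motif in a member described in the text.

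Cycs, NRF1 core on the opposite strand, chr6:50566612-50566639, minus strand: atgctagctcGCATGCGCgcgcacaaac
Sdhb, NRF1 core on the opposite strand, chr4:140961207-140961234, plus strand: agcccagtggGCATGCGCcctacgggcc
Cox6a1, NRF1 core, chr5:115349103-115349130, minus strand: caggaacgggGCGCATGCgcgctctcgc
Atp5g2, NRF1 core, chr15:102671072-102671099, minus strand: ggctccggccGCGCATGCgcagagcctt
Cox8a, ETS motif on the opposite strand, chr19:7217605-7217632, minus strand: tttccgaaatACTTCCGGctcgggcgtc
Ndufs6, YY1 motif, chr13:73328433-73328459, minus strand: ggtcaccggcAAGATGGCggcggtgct

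In *Cycs*, *Sdhb*, *Cox6a1* and *Atp5g2* the match began 60, 54, 162 and 42 bases before the start site. In *Cox8a* it began 6 bases before it and crossed it, and in *Ndufs6* at base 34 after it. Where the NRF1 core is followed by GC, as in *Cox6a1* and *Atp5g2*, it also reads on the opposite strand, and the matches overlap. No window among these was tested for binding, and the windows were not related to the expression differences.

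The median member varied less between cultures than the median gene. The residual SD from limma, which is drawn towards a trend with expression level, had a median of 0.24 over the members and 0.49 over all genes tested. For the 13 subunits encoded by mitochondrial DNA this moderated SD was also 0.24, and for 12 mitochondrial carriers and related genes 0.28. The members are more abundant than the median gene, and they were not compared with genes of like level. In 60 of the 82 members the highest library was below 2 times the lowest, as in 1842 of the 11204 genes tested. The spread was not equal in the genotypes. The median member had an SD of 0.16 in untreated WT cultures and 0.10 in WT cultures with IL-4, but of 0.32 and 0.24 in the KI cultures, or 0.17 and 0.20 between T22 and T32 alone. Untreated T15 was the highest of the 12 libraries for 37 of 82 members, T22 with IL-4 for 17 and T15 with IL-4 for 14. In untreated T15 the median member lay 0.36 above its own mean and the median gene tested 0.15 above. In untreated T22 the median member lay 0.10 below its own mean and the median gene 0.0087 above, and in untreated T32 they lay 0.13 below and 0.15 above. Untreated T15 was also the library with the highest astrocyte and lowest microglial marker levels.

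**Figure D2:**
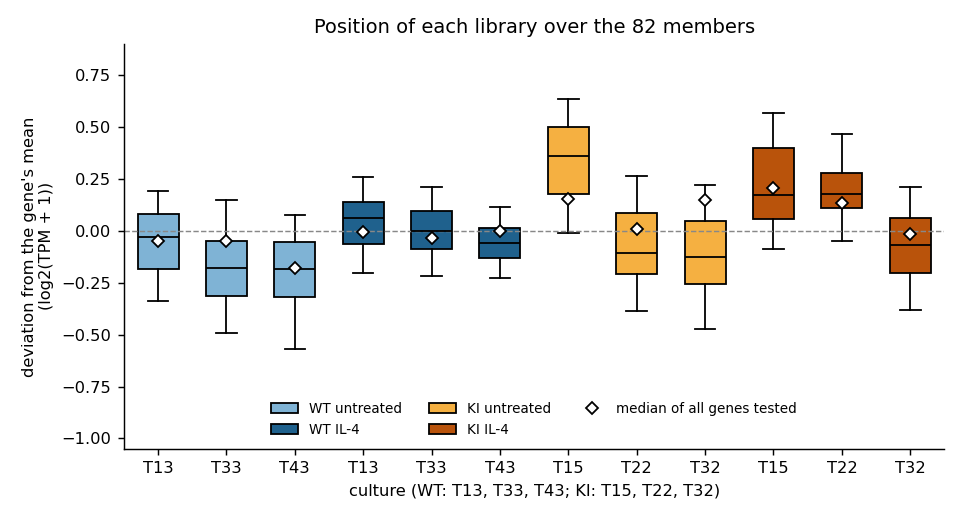
Deviation of the 82 members from their own mean over the 12 libraries, on the log2(TPM + 1) scale (boxes, quartiles with the median; whiskers, 5th to 95th percentile), with the median of all genes tested in each library (diamonds). The untreated T15 library is highest, with a median of 0.36, and the untreated T43 and T33 libraries are lowest, at -0.19 and -0.18.

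The comparison of KI with WT asked whether the R47H genotype goes with a different level of respiratory chain transcripts. No member passed limma's moderated F-test of genotype (0 of 82), against 1.65% of the 11204 genes tested. An unadjusted p below 0.05 was found for 8 members (9.76%) and for 16.1% of all genes. The fitted difference was above 0 for 70 members, with a median of 0.14, beside 63.1% and 0.13 for all genes, and the median member thus lay 0.012 above the median gene. Without T15 the median was 0.045 with 53 members above 0, below the median of 0.096 of all genes. Under median-ratio scaling, which moved the median of all genes from 0.13 to -0.010, the members' median was -0.0089 with 39 above 0. With the astrocyte marker score as a covariate it was -0.0082, again with 39 above 0, and the median of all genes 0.085. Under quantile normalization it was 0.093 and that of all genes -0.063. Relative to all genes the members' median thus ranged over the alternatives from -0.094 to 0.16. The 95% interval of the difference lay within 0.5 of 0 for 50 members and within 1 of 0 for 78. The summed microglial markers, lower in every KI library, and the mural markers *Acta2* and *Tagln*, higher in every KI library, also separated the genotypes. These markers were not used in a fit, and their part was not tested.

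Complex III held the members with the smallest p. *Uqcrfs1*, the Rieske iron-sulphur protein (chr13:30540308-30545362, GRCm38), had 108, 77.5 and 101 TPM in WT cultures T13, T33 and T43 without IL-4, against 201, 121 and 180 TPM in KI cultures T15, T22 and T32. With IL-4 the values were 116, 126 and 124 TPM in WT and 177, 149 and 188 TPM in KI. Every KI library lay above every WT library of the same treatment. The difference was 0.63 (SE 0.14), a 1.55-fold ratio, and the limma F-test gave an adjusted p of 0.0698. Without T15 it was 0.54 with an adjusted p of 0.212.

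*Uqcrc2*, core protein 2 of the same complex (chr7:120635176-120659524), had 74.8, 86.1 and 84.3 TPM in untreated WT against 129, 132 and 149 TPM in untreated KI. With IL-4 it was at 93.4, 94.9 and 86.9 TPM in WT and at 178, 97.6 and 122 TPM in KI. Again the genotypes did not overlap, with T22 nearest to WT after IL-4. The difference was 0.61 (SE 0.14; limma adjusted p 0.0806), and 0.51 without T15 (adjusted p 0.113). These were the 2 members whose KI libraries all lay above the WT libraries under both treatments, a pattern of 3.7% of all genes. No member had the opposite pattern, which 1.23% of all genes had. When the genotype coefficient was tested alone instead of together with the interaction, *Uqcrfs1* (limma adjusted p 0.0236) and *Uqcrc2* (0.0265) passed, 2 of 82 members against 5.13% of all genes.

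The rest of complex III showed no such separation. All 9 subunits had a difference above 0 (median 0.19), and 6 of 9 without T15 (median 0.045). In complex I, 32 of 37 were above 0, with a median of 0.12. *Ndufa10*, an accessory subunit, had the smallest p there, with 90.0, 129 and 72.4 TPM in untreated WT cultures against 178, 158 and 141 TPM in untreated KI cultures, and 129, 121 and 159 TPM against 194, 145 and 150 TPM with IL-4. The genotypes overlapped after IL-4, and the difference was 0.50 (SE 0.15; limma adjusted p 0.151). The lower-lying *Ndufa2* (-0.018, adjusted p 0.813) and *Ndufb8* (-0.12, adjusted p 0.869) were within their error. Complex V had 16 of 17 subunits above 0 (median 0.19), complex II 3 of 4 (0.22) and complex IV 9 of 14 (0.040). Without T15 these medians were 0.037, 0.071 and -0.032, and that of complex I 0.058. *Cycs* ranged from 34.0 to 38.3 TPM in untreated WT against 76.3, 39.1 and 47.6 TPM in untreated KI, where T15 was the high one.

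The largest differences in size were those of low isoforms of complex IV. *Cox6a2* had 6.19, 4.06 and 6.42 TPM in untreated WT against 1.37 and 5.36 TPM in T15 and T22, and was listed at 0 in T32. With IL-4 it was at 14.0, 9.47 and 14.5 TPM in WT and at 8.13, 8.36 and 1.57 TPM in KI. The difference was -1.27 (SE 0.47; limma adjusted p 0.318), the lowest of any member. *Cox6b2* had 12.0, 5.89 and 0.499 TPM in untreated WT against 3.81, 31.7 and 45.1 TPM in untreated KI. With IL-4 it was at 3.23, 6.12 and 2.28 TPM in WT and at 7.87, 15.3 and 9.77 TPM in KI. The difference of 1.62 (SE 0.60; limma adjusted p 0.306) was the highest of any member, and the untreated groups overlapped through T15. Their abundant partners *Cox6a1* (0.0044) and *Cox6b1* (-0.057) differed little by genotype.

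**Figure D3:**
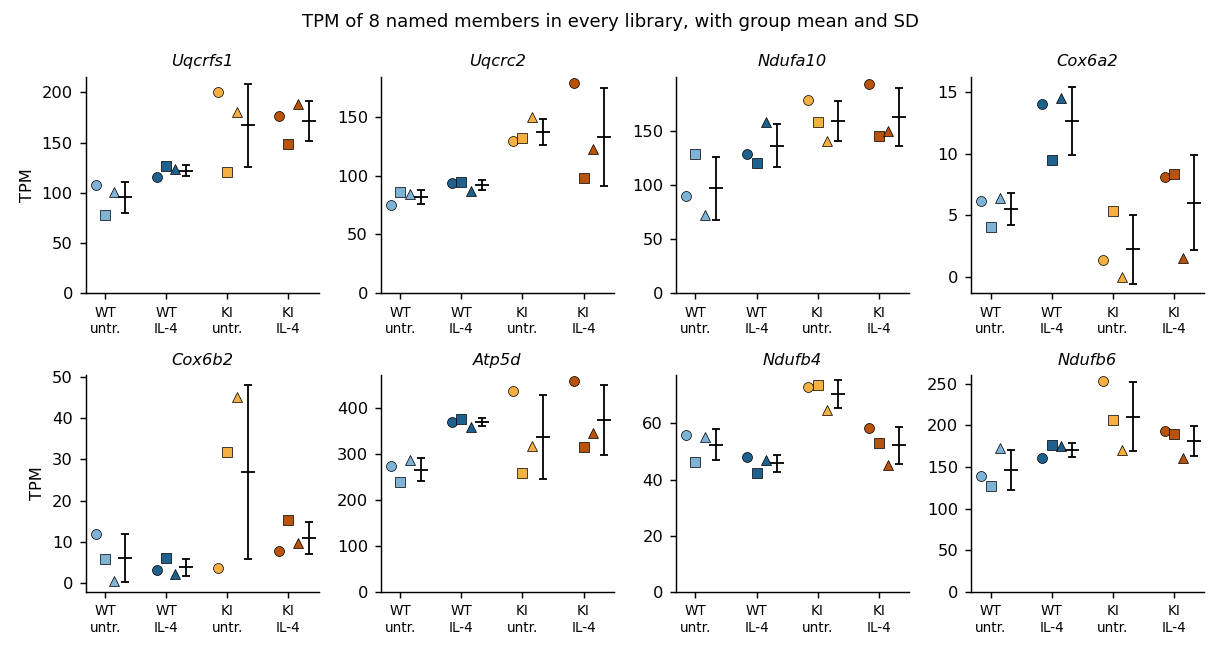
TPM of 8 members in every library (circles T13 or T15, squares T33 or T22, triangles T43 or T32), with the group mean and SD (n = 3) as bars. KI libraries of *Uqcrfs1* and *Uqcrc2* lie above the WT libraries of the same treatment, while *Atp5d* is higher and *Ndufb4* lower with IL-4 in each culture.

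The comparison of IL-4 with untreated cultures asked whether alternative activation goes with more respiratory chain transcript. No member passed the F-test of IL-4 (0 of 82), against 0.893% of all genes tested, and none had an unadjusted p below 0.05, against 7.27% of all genes. Yet most differences were small and positive. They were above 0 for 66 members, with a median of 0.12, beside 55.8% and 0.043 for all genes, so that the median member lay 0.074 above the median gene. The 95% interval lay within 0.5 of 0 for 57 members and within 1 of 0 for 78. The members' median ranged from 0.055 without T22 to 0.15 without T15, and it was 0.074 under median-ratio scaling with 55 above 0 and 0.017 under quantile normalization with 46 above 0. The medians of all genes under these scalings were 0.0034 and -0.022. Relative to all genes the members' median ranged from 0.034 without T32 to 0.12 without T15.

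All 17 subunits of complex V had an IL-4 difference above 0 (median 0.16), as had all 4 of complex II (0.23), 8 of 9 of complex III (0.19), 10 of 14 of complex IV (0.15) and 27 of 37 of complex I, whose median of 0.031 was below that of all genes. The difference between complexes was not tested. Relative to all genes the median of complex I was -0.012, and -0.015 under median-ratio scaling and -0.0057 under quantile normalization, but 0.046 without T15, 0.045 without T43 and 0.013 in WT alone. That of complex V was 0.12, 0.12 and 0.073, with 14 of 17 subunits above 0 under quantile normalization, and that of complex IV 0.11, 0.11 and -0.0072.

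**Figure D4:**
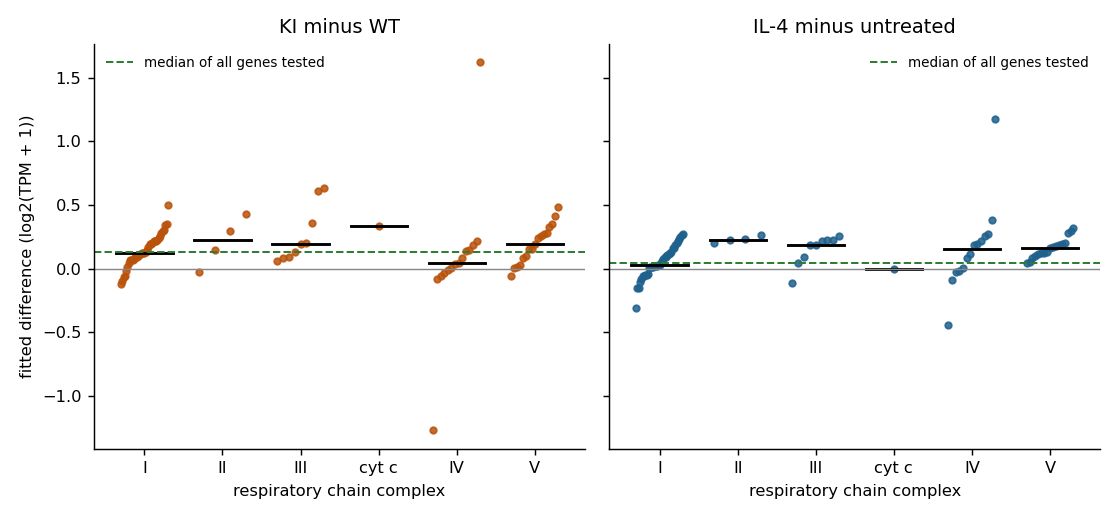
Fitted differences of the 82 members on the log2(TPM + 1) scale by complex, for KI minus WT and for IL-4 minus untreated (points; black bars, median of the complex; dashed line, median of all genes tested). For IL-4 all points of complexes II and V lie above 0 (14 of 17 in complex V under quantile normalization), while complex I straddles the median of all genes at 0.043.

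Complex II illustrates this pattern gene by gene. In WT cultures *Sdha* was at 156, 131 and 121 TPM untreated and at 191, 177 and 179 TPM with IL-4, and *Sdhb* at 238, 267 and 234 TPM untreated and at 316, 286 and 280 TPM with IL-4. The membrane anchors followed, with *Sdhc* at 197, 161 and 142 TPM and then 218, 202 and 217 TPM, and *Sdhd* at 209, 208 and 205 TPM and then 243, 222 and 238 TPM. In all 4 genes every WT library with IL-4 lay above every untreated WT library. This was so for 23 of 82 members (28.0%), against 10.8% of all genes tested, and no test was made of that count. In KI cultures the groups overlapped. T15 went from 273 to 240 TPM in *Sdha*, from 282 to 273 TPM in *Sdhb* and from 306 to 283 TPM in *Sdhc*, but from 250 to 343 TPM in *Sdhd*, whereas T22 and T32 were higher with IL-4 in all 4 genes. The fitted IL-4 differences of the 4 genes were 0.20 to 0.26, and none passed.

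In complex V the subunit with the smallest p was *Atp5d*, the delta subunit of the central stalk. It went from 274 to 371 TPM in T13, from 239 to 378 TPM in T33 and from 287 to 360 TPM in T43. In the KI cultures it went from 439 to 461 TPM in T15, from 259 to 316 TPM in T22 and from 318 to 346 TPM in T32. It was higher with IL-4 in 6 of 6 cultures, by 0.32 (SE 0.14; limma adjusted p 0.741, and 0.135 with culture as a fixed block). *Cox6a2* was higher in 6 of 6 cultures by 1.17 (SE 0.47; adjusted p 0.754). *Ndufa10* was higher by 0.27 (adjusted p 0.795), in T13, T43, T15 and T32 but not in T33 or T22. Members higher with IL-4 in all 6 cultures numbered 9 (11.0%), against 5.73% of all genes, and were *Atp5d*, *Cox6a1*, *Cox6a2*, *Cyc1*, *Ndufa13*, *Ndufa8*, *Ndufb9*, *Sdhd* and *Uqcrc1*.

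A single member had a lower level with IL-4 throughout the 6 cultures, against 2.51% of all genes. *Ndufb4*, an accessory subunit of the membrane arm, went from 56.0 to 48.0 TPM in T13, from 46.2 to 42.3 TPM in T33 and from 55.2 to 47.1 TPM in T43. It went from 72.9 to 58.2 TPM in T15, from 73.8 to 53.1 TPM in T22 and from 65.0 to 45.2 TPM in T32. The difference was -0.31 (SE 0.13; limma adjusted p 0.727). Its copy *Ndufb4c* was lower with IL-4 in T13, T33, T43 and T15 but higher in T22, at 282 and then 298 TPM, and in T32, at 238 and then 296 TPM. The next lowest p-values among members with a negative difference were those of *Ndufa2* (-0.15, adjusted p 0.918) and *Ndufa6* (-0.16, adjusted p 0.948).

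Within cultures the IL-4 difference set T15 apart. Of the 82 members 57 were higher with IL-4 in T13, 63 in T33 and 59 in T43, all WT, and 72 in T22 and 47 in T32, but 21 in T15, where the median difference was -0.12 and that of all genes 0.032. Of all genes, 53.4% were higher with IL-4 in T13, 50.5% in T33, 62.5% in T43, 58.2% in T22, 40.3% in T32 and 52.4% in T15. The members' median was highest in T22, at 0.27, against 0.13 for all genes. In T13 and T33 it was 0.093 and 0.19, against 0.039 and 0.0067. In T43 it was 0.12, below the 0.17 of all genes, and in T32 0.060, against -0.16. In T15, 4 of 17 complex V subunits were higher with IL-4, against 10 to 17 in the other cultures. In that culture the astrocyte marker sum went from 4599 to 3509 TPM and the microglial sum from 7278.5 to 12138.5 TPM. With the astrocyte score as a covariate the members' median IL-4 difference was 0.10 with 63 above 0.

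**Figure D5:**
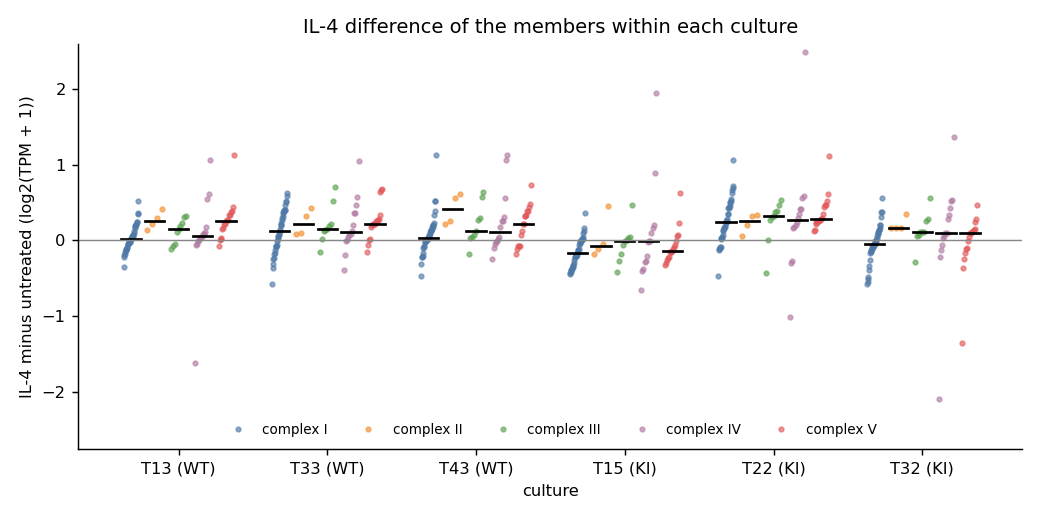
IL-4 minus untreated difference of each member within each of the 6 cultures, on the log2(TPM + 1) scale, coloured by complex (cytochrome c left out; black bars, median of the complex). The medians lie below 0 for all 5 complexes in T15, and above 0 for all 5 in T13, T33, T43 and T22.

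A different response to IL-4 in KI than in WT would appear as an interaction. No gene passed the limma interaction test, 0 of 82 members and 0% of all 11204 genes. An unadjusted p below 0.05 was found for 357 genes, none of them a member. The median IL-4 difference of the members was 0.13 in WT (69 of 82 above 0) and 0.087 in KI (54 above 0), or 0.16 (66 above 0) in KI without T15, and their median interaction of -0.065 was close to that of all genes, -0.070. Without T15 it was 0.013, against -0.096 for all genes. The smallest p-values were those of *Atp5o*, the subunit that joins the head to the stalk (-0.66, SE 0.32; adjusted p 1.00), *Ndufs6* (-0.48, SE 0.27; adjusted p 1.00) and *Ndufb6* (-0.43, SE 0.25; adjusted p 1.00). *Atp5o* had 222, 147 and 134 TPM in untreated WT, then 249, 236 and 223 TPM with IL-4, one of the 23 members without overlap in WT. In KI it was at 353, 222 and 265 TPM and at 317, 241 and 206 TPM. *Ndufs6* was at 165, 112 and 152 TPM and then 189, 173 and 149 TPM in WT, and at 201, 172 and 176 TPM and then 175, 177 and 126 TPM in KI, with overlap in both.

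The rest of the mitochondrial transcripts were read through lists of their own. The 13 subunits encoded by mitochondrial DNA, which are cut from shared precursors and so are not independent of each other, were at mean levels from 322 TPM (*mt-Nd4l*) to 4285 TPM (*mt-Co3*). Their summed TPM was 16380 to 18838 in untreated WT cultures and 20223 to 21192 in WT cultures with IL-4, without overlap, and 30485, 18555 and 21710 in untreated T15, T22 and T32 against 25634, 20415 and 19739 with IL-4. None was called for genotype, IL-4 or interaction, while without T22 *mt-Nd4* (0.62, limma adjusted p 0.0472) and *mt-Nd4l* (0.68, adjusted p 0.0451) passed for genotype. The genotype difference was above 0 for 13 of 13 (median 0.33, and 0.14 with 12 of 13 above 0 without T15). The IL-4 difference was above 0 for 13 of 13 in WT (median 0.24) and for 2 of 13 in KI (median -0.089, and -0.0069 with 6 of 13 above 0 without T15), and the interaction was below 0 for 13 of 13 with T15 and without it (medians -0.29 and -0.21). With an unadjusted p below 0.05 for 1 of the 13, the interaction of these transcripts was not shown.

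The tricarboxylic acid cycle and fatty acid oxidation supply the chain with electrons. The fitted genotype difference was above 0 for all 18 genes of the first list and all 18 of the second (medians 0.38 and 0.36), and for 15 of 18 in each without T15 (0.17 and 0.15). None was called. The genotype coefficient alone called *Acadl* (0.57, limma adjusted p 0.0299) and *Cpt2* (0.84, adjusted p 0.0404) of the second list. Of 78 mitochondrial ribosomal proteins 66 were above 0 for genotype (median 0.16). Among them 1 was called, *Mrps6*, a protein of the small subunit, which was higher in KI by 1.45 (SE 0.29, limma adjusted p 0.0472). The genotype coefficient alone also called *Mrpl15* (0.49, limma adjusted p 0.0375) and *Mrpl51* (0.51, adjusted p 0.0209). *Mrps6* was at 80.7 to 165 TPM in the WT libraries and at 181 to 621 TPM in the KI libraries, and T15 was the highest. Its difference stayed above 0 in all 18 alternative fits, with adjusted p from 0.0136 to 0.336, but it was called in only 5 of them. It was not called with culture as a random block (1.45, limma adjusted p 0.0752), with the astrocyte covariate (0.83, 0.0597), or without T15 (1.06, 0.0961), T32, T33 or T43. Nor was it called under median-ratio scaling, quantile normalization, a pseudocount of 0.1, no variance trend or no expression filter, or in either treatment alone.

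Among 43 assembly factors the genotype median was 0.19 with 27 above 0, and the IL-4 median 0.040 with 23 above 0. Among 12 carriers, porins, uncoupling proteins and membrane dynamics genes the medians were 0.19 and 0.077. Of these, *Slc25a5*, the ADP/ATP carrier that exchanges the product of complex V, had a mean of 314 TPM in untreated and 526 TPM in IL-4-treated WT cultures, and of 406 and 466 TPM in KI cultures. Its IL-4 difference of 0.49 (SE 0.12) had a limma adjusted p of 0.134, of 0.0359 with culture as a fixed block and of 0.0072 without T15. It was called in 3 of 18 alternative fits, in which the difference ranged from 0.23 to 0.74 and the limma adjusted p from 0.0072 to 0.845. Among 16 regulators of mitochondrial biogenesis the IL-4 median was 0.21 with 13 above 0 and the genotype median 0.23 with 11 above 0. None of these 3 lists held a call in either comparison as reported. In alternative fits the assembly factor *Acad9*, with a genotype difference of 1.12 (SE 0.26; limma adjusted p 0.0830), was called in 2 of 18, with the genotype coefficient alone and without T22. *Ucp2*, an uncoupling protein of the inner membrane, differed by -0.67 (SE 0.15; adjusted p 0.0596), and was called for genotype in 3 of 18, and for IL-4 in 1 of 18, with culture as a fixed block (0.44, adjusted p 0.0498).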

How the data were processed

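RNA from 12 libraries of 6 primary microglial cultures was made into cDNA from poly(A) tails and sequenced. Reads were cleaned with Trim Galore and transcripts estimated by Salmon on ENSEMBL GRCm38, and the authors deposited TPM per gene and library from tximport; tool versions are not given in the sources used here. TPM sums to 1000000 in every library and keeps no read depth, so that no interval for counting error is given and precision rests on the spread between cultures. The authors' own test was DESeq2 on counts. Those counts were not used here, and limma on the log scale was used instead. Of the 48623 rows, 48350 were named from the GENCODE annotation of GRCm38.

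Values were transformed to log2(TPM + 1), and 11204 genes with a mean above 1.5 were fitted with limma 3.58.1 (R 4.3.3) on genotype, IL-4 and their interaction over all libraries, with a variance trend. Moderated F-tests took each main coefficient together with the interaction, Benjamini-Hochberg adjusted over all genes (threshold 0.05). Medians over members carry no test. Python 3.11.15, pandas 2.3.3, numpy 2.4.6 and matplotlib 3.10.9 served for summaries. Scripts were tested on simulated data. The members and lists were chosen with earlier results of these data known. Members were named by a fixed rule: those passing a test, the highest and lowest of each complex, the 3 smallest p-values per direction and test, isoform sets and complex II; *Cox6b2*'s size of difference, *Slc25a5*, other genes called in alternative fits and members sharing a direction in all cultures were singled out after their values were seen.

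Untreated and treated libraries pair by the culture number in their titles. Deviations from group means correlated between the libraries of a culture by 0.079 to 0.38 and between cultures by -0.30 to 0.19. Alternatives were the genotype or IL-4 coefficient alone, single states, pseudocount 0.1, no filter, a filter at 3, quantile and median-ratio normalization, the mitochondrial genome left out, no variance trend, culture as a block, an astrocyte covariate and each culture left out.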

Additional observations from a re-analysis of the deposited data

Results flagged for a closer look

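*Ndufb6*, an accessory subunit of the membrane arm of complex I, drew attention because its IL-4 difference had opposite directions in the genotypes, in every culture. It went from 139 to 161 TPM in T13, from 128 to 176 TPM in T33 and from 173 to 175 TPM in T43, all WT. In the KI cultures it went from 254 to 194 TPM in T15, from 207 to 190 TPM in T22 and from 171 to 161 TPM in T32. The interaction was -0.43 (SE 0.25), with a limma adjusted p of 1.00 and an unadjusted p of 0.108, and -0.34 without T15. Of the 82 members it alone had this pattern (1.22%), beside 1.79% of all genes tested. The cause was not tested.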

How the results depend on the processing

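No member was called for IL-4 in any of 18 alternative fits or for the interaction in any of 15, while the number of all genes called ranged from 45 to 240 (100 as reported) and from 0 to 4 (0 as reported). For genotype, 16 of 18 alternatives called no member. The genotype coefficient alone called 2, *Uqcrfs1* and *Uqcrc2*, and leaving out a culture called 0 to 1, *Uqcrfs1* without T22 (0.79, limma adjusted p 0.0313), while all genes called ranged from 2 to 575 (185 as reported). Without T33 and without T43 that number was 3 and 16. With culture as a paired replicate block it was 77 for genotype and 240 for IL-4, and 0 members were called in either. The members' median difference ranged from -0.0089 to 0.23 for genotype, from 0.017 to 0.15 for IL-4 and from -0.18 to 0.013 for the interaction.

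Of 259 alternative fits of named members, 250 kept direction and side of the threshold. Those turned in sign were *Ndufa2* for genotype in IL-4-treated cultures alone (0.091) and with the astrocyte covariate (0.017), and, with a culture left out, *Ndufa2* (-0.084 to 0.024) and *Ndufb8* (-0.26 to 0.084). The cause was not tested. The depth of the libraries is unknown, and the median standard error of a member's difference was 0.14 in the fit that counts the 2 libraries of a culture as independent, and 0.20 within a single treatment or genotype.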
